A study of Mus musculus with 16 samples.

Results

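The gene loci described here are those of the coreceptors that mark the CD4 and CD8 T cell lineages, Cd4, Cd8a and Cd8b1, and of Zbtb7b, which encodes the zinc finger factor ThPOK. Members were all islands of H3K27ac and of DNase-seq that touched 3 windows of the mouse build mm9, chr6:124790000-124860000 for Cd4, chr6:71230000-71370000 for Cd8b1 with Cd8a, and chr3:89160000-89220000 for Zbtb7b. The windows held 164 of the 469755 islands in the 16 lists of the series, 69 of H3K27ac and 95 of DNase. The Cd4 window had 106 of them, the Zbtb7b window 49 and the Cd8 window 9. No mm9 annotation was used here, so islands are given by position, and whether one lies on an exon, an intron or a promoter was not analysed.

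All cells came from C57BL/6 mice with floxed Bcl11b alleles and CreERT2, a Cre recombinase that 4-hydroxytamoxifen (4-OHT) switches on. The labels do not name the promoter that drives the Cre, and they give both naive CD4 T cells and a CD4+CD44high sort for the starting cells. Early cells were grown for 4 days towards the T helper 2 (Th2) fate, either treated with 4-OHT (KO) or untreated (WT). Late cells went through 4 such days without drug, rested for 1 day in IL-2 and were then given another Th2 culture of 4 days, in which the KO cells received 4-OHT. WT cells carried the same alleles but were not treated, so loss of Bcl11b and exposure to 4-OHT cannot be told apart. Each assay had 2 libraries per stage and genotype, and no label ties the replicates to separate cultures or animals, so a p-value measures only the spread between these libraries, which may be technical. In such bulk material, a change in fewer cells and a smaller change in every cell cannot be told apart.

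Thymocytes that become helper T cells keep CD4, the coreceptor for MHC class II, and shut off CD8, the coreceptor for MHC class I, which is built from the products of Cd8a and Cd8b1. ThPOK is needed for that choice and restrains the CD8 programme, while RUNX factors silence Cd4 and Zbtb7b in the CD8 lineage. H3K27ac marks active promoters and enhancers, and DNase I cuts where nucleosomes are displaced, so both are read as signs of active regulatory DNA.

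The promoters of Zbtb7b and Cd8a are printed because broad islands filled much of the former's window and nearly none were listed in the latter's. Of the 4 genes, 2 matched the RefSeq promoter table (build GRCm38.p6), with 3 promoters between them, and Cd4 and Cd8b1 did not. The stretches are the 250 bases before each start, 5′ to 3′ on the strand of the gene, and their GRCm38.p6 positions cannot be laid over the mm9 islands. Capitals mark a match to TGTGGT, the core of RUNX motifs, searched with its reverse complement ACCACA. That core was in 14.0% of the 32851 promoters of the table, and AGATAA, the core bound by GATA factors, was in 9.99%, counted with its reverse complement TTATCT. Both strands were searched, and the 2 motifs were counted separately, so that 1 promoter can hold both.
Cd8a, chr6:71373177-71373426, + strand: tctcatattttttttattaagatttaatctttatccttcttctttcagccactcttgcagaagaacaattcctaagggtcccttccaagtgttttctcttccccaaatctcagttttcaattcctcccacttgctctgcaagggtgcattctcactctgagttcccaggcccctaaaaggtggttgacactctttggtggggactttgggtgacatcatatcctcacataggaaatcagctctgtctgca
Zbtb7b start 1, chr3:89393379-89393628, - strand: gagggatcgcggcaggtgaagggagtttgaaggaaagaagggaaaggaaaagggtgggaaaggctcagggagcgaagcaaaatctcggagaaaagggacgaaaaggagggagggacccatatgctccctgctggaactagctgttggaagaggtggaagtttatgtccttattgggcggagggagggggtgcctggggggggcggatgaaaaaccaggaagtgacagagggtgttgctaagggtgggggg
Zbtb7b start 2, chr3:89387672-89387921, - strand: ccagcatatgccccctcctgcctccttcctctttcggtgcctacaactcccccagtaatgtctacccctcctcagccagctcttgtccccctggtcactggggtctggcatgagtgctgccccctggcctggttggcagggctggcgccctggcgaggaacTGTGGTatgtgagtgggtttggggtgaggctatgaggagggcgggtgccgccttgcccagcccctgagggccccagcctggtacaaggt
The upstream stretch of Zbtb7b start 2 held the single RUNX match, which began 89 bases before the start, and none of the 3 held the GATA core. The letters G and C made up 42.8% of the Cd8a stretch, 56.4% at Zbtb7b start 1 and 64.8% at Zbtb7b start 2. CpG pairs numbered 0, 7 and 5 in the same order. In the RefSeq order of genes on GRCm38.p6, Cd4 lies between Gpr162 and Lag3, Cd8b1 is followed by Cd8a and then Rmnd5a, and Zbtb7b lies between Dcst2 and Lenep.

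Lists held between 26548 and 32112 islands for H3K27ac and between 17397 and 39736 for DNase, where both late KO lists (18812 and 17397) were the shortest. The lists give no read counts, so the depth behind them is unknown, and where an island is missing, the signal there may still be above 0. Each island carries a score from the authors' island caller, used here to rank islands within their own list. Below, the percentile of an island is the share of its own list with a lower score. Ranks and percentiles both depend on the length of the list.

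The 3 windows differed in how much of them was marked. H3K27ac islands covered 33.4 and 35.2 kb of the 70-kb Cd4 window in early WT, 36.0 and 34.8 kb for early KO, 30.2 and 27 kb for late WT, and 43.0 and 35.4 kb for late KO. In the 60-kb Zbtb7b window the values were 21.8 and 20.0 kb for early WT, 21.2 and 22.2 kb for early KO, 18.0 and 18.8 kb for late WT, and 20.6 and 17.2 kb for late KO. In the 140-kb Cd8 window they were 1.8 and 1.8 kb for early WT, 2.0 and 1.4 kb for early KO, 0.2 and 1.0 kb for late WT, and 0.0 kb for both late KO lists. The 3 windows did not overlap in covered kb in any H3K27ac list, with Cd4 above Zbtb7b and Zbtb7b above Cd8 in all 8.

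DNase islands were shorter. They covered 16 and 18.8 kb of the Cd4 window in early WT, 7.4 and 15.8 kb for early KO, 11.8 and 10.8 kb for late WT, and 6.6 and 6.8 kb for late KO. For Zbtb7b the values were 15.0 and 16 kb for early WT, 6.0 and 13.0 kb for early KO, 13.6 and 12.6 kb for late WT, and 4.6 and 8.8 kb for late KO. The Cd8 window held no DNase island away from its edge in any of the 8 lists.

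**Figure D1:**
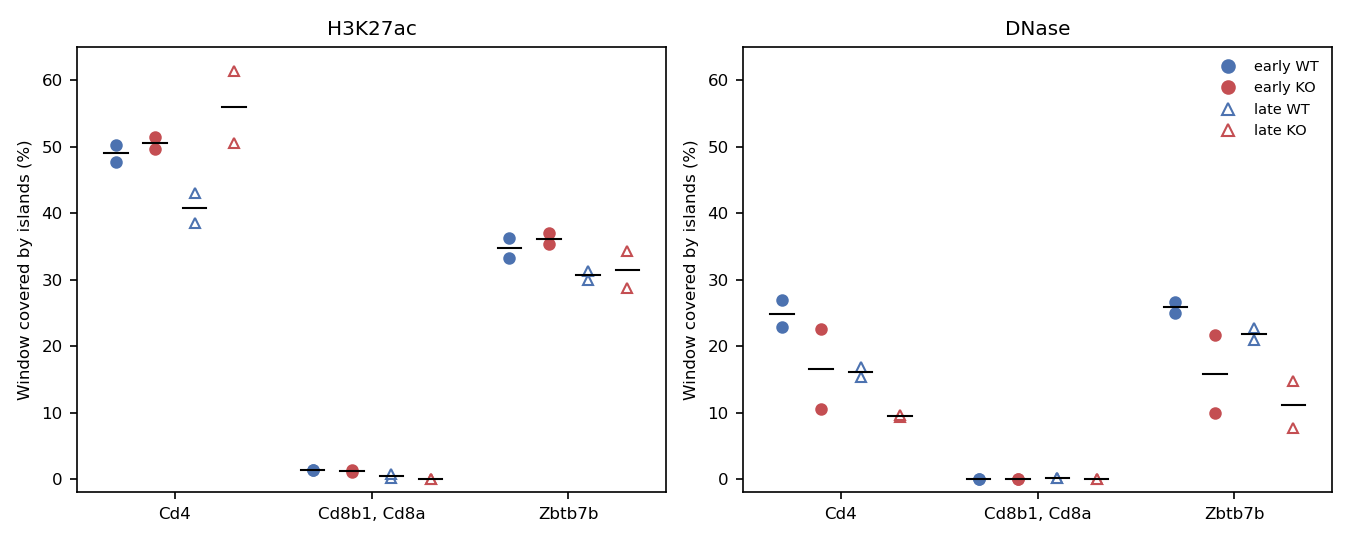
Share of each window covered by islands (vertical axis, %) for the Cd4, Cd8b1 with Cd8a, and Zbtb7b windows, with H3K27ac on the left and DNase on the right. Each point is 1 library, bars are means of 2 libraries, and the Cd8 window lies near 0 in both assays.

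None of the 12 tests of window coverage (3 windows, 2 assays, genotype and stage) passed after Benjamini-Hochberg adjustment, in exact two-sided permutation tests of 4 against 4 libraries, where the smallest possible p is 0.0286. H3K27ac over the Cd4 window averaged 37.3 ± 3.83 kb in KO and 31.45 ± 3.62 kb in WT (SD, n = 4 each), a difference of 5.85 kb (exact permutation p = 0.0571, adjusted p = 0.1714). In the Cd8 window, early lists averaged 1.75 ± 0.25 kb and late lists 0.30 ± 0.48 kb (SD, n = 4 each), and the 2 stages did not overlap (exact permutation p = 0.0286, adjusted p = 0.1714). DNase over the Zbtb7b window averaged 8.10 ± 3.70 kb in KO and 14.3 ± 1.5 kb in WT (SD, n = 4 each; exact permutation p = 0.0571, adjusted p = 0.1714), and early KO replicate 2 at 13.0 kb lay within the range of WT. Dividing each DNase list by the genome length it covers brought that difference from -6.20 to -1.50 kb (exact permutation p = 0.4286), and the DNase difference of the Cd4 window from -5.20 to -0.29 kb (exact permutation p = 0.8571). With all DNase lists cut to the same number of islands by score, the Zbtb7b difference was -5.70 kb (exact permutation p = 0.0286, adjusted p = 0.1714) and the Cd4 difference -1.20 kb (exact permutation p = 0.3429, adjusted p = 0.6857).

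Within the Cd4 window the H3K27ac islands of all 8 libraries merged into 4 regions, and every list had an island in each. Over the 3 windows, 8 of 9 merged H3K27ac regions were in all 8 lists, where 51.2% of all 35909 were. For a region that crossed a window edge, islands beyond the edge were counted too. The region with the highest mean percentile over the 8 lists was chr6:124821401-124847000. Its top island stood at percentiles 98.5 and 99.0 in early WT and 99.0 and 98.8 in early KO. In late WT that island stood at 97.7 and 98.1, and in late KO at 98.4 and 98.7. The region was continuous in some lists and broken in others. The late KO replicate 1 list joined it into 1 island of 24.2 kb, while in late WT replicate 2 the longest island over its core was 8.6 kb. Beside it, chr6:124848001-124871600 ran past the window edge and was filled from 124850001 to 124860000 in all 8 lists. In every KO list its top island scored above that of chr6:124821401-124847000, and in every WT list below. In late KO replicate 2 the 2 scores were close, at 12137.0 and 12028.5. With scores summed over each region the order in that list was reversed (12137.0 against 12189.7). How often pairs of regions split KO from WT in this way was not counted. The remaining pair, chr6:124806401-124808200 and chr6:124811801-124818000, was of middling score, at percentiles from 43.2 to 59.8. The former ranked from 11974 to 13936 from the top in WT lists and from 14017 to 15458 in KO lists, without overlap, an order found in 10.2% of H3K27ac regions that were in all 8 lists. In percentiles, which also depend on list length, it overlapped, at 50.4 to 56.2 in WT and 45 to 54.5 in KO.

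**Figure D2:**
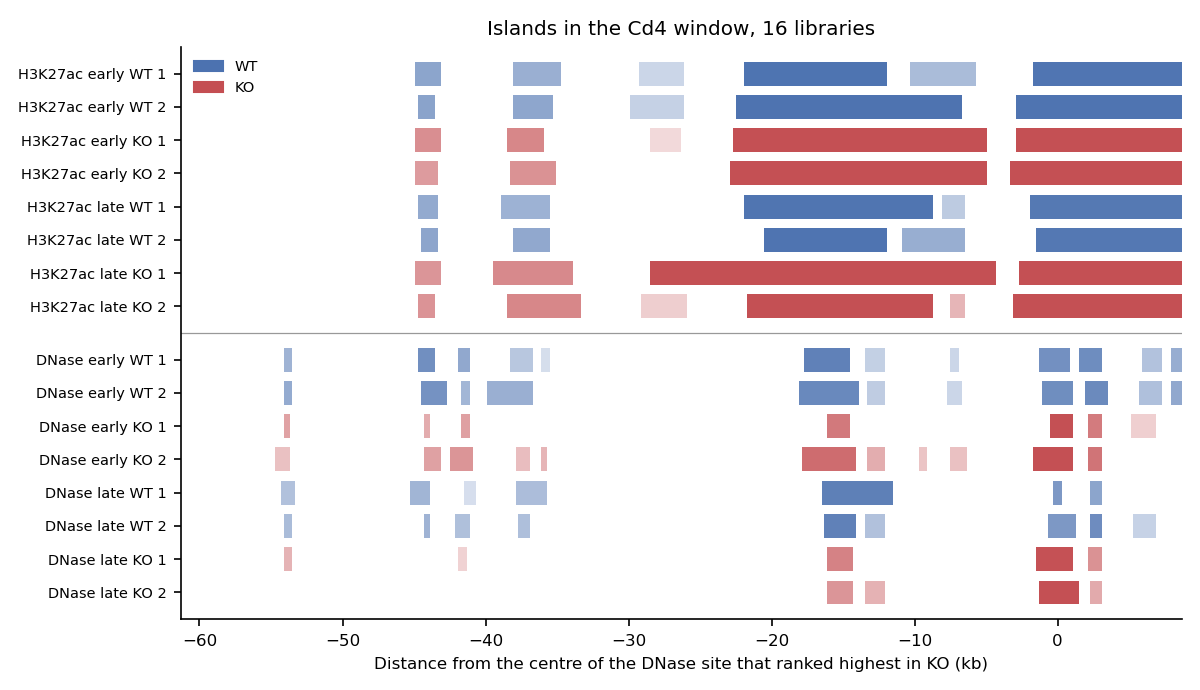
Islands in the Cd4 window for the 16 libraries, as distance in kb from the centre of the DNase site described in the text as ranking highest in KO (horizontal axis). Each row is 1 library, WT blue and KO red, and stronger colour stands for a higher score percentile within the list. The 2 broad H3K27ac regions are present in every library, and the DNase site at 0 is deepest in colour in the 4 KO libraries.

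The windows were divided into 27 bins of 10 kb, and the kb covered in each bin was fitted with limma over all bins of the genome (39126 for H3K27ac, 37586 for DNase), with Benjamini-Hochberg adjusted p under 0.05 as the threshold. For H3K27ac, 12 member bins were tested and 4 passed in at least 1 contrast, 3 in the Cd4 window and 1 in the Zbtb7b window. In late KO against late WT, 2 of 12 rose and 0 fell, where 3.99% of all bins rose and 2.76% fell. For KO against WT averaged over the stages, 1 rose and 0 fell (background 10.8% and 7.39%). In early KO against early WT, limma called 0 of 12, where 9.17% of all bins rose and 5.43% fell, and 1 of 12 had an unadjusted p under 0.05, as did 25.5% of all bins. In late WT against early WT, 2 fell and 0 rose (background 6.77% and 9.54%), and in late KO against early KO 1 rose and 0 fell (4.65% and 4.95%). The KO difference was larger in late cells in 1 bin and smaller in 0 (background 3.95% and 6.18%). With so few bins, these shares are set by 1 or 2 bins each, and no bin passed any of these contrasts once the lower 50% of each list, by score, was dropped. The median log2 change of the member bins was 0.06 in late KO against late WT, beside -0.04 over all bins, and -0.02 beside -0.03 in early KO against early WT. The H3K27ac bins described below were named because they passed. How often groups do not overlap over all bins was not counted.

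**Figure D3:**
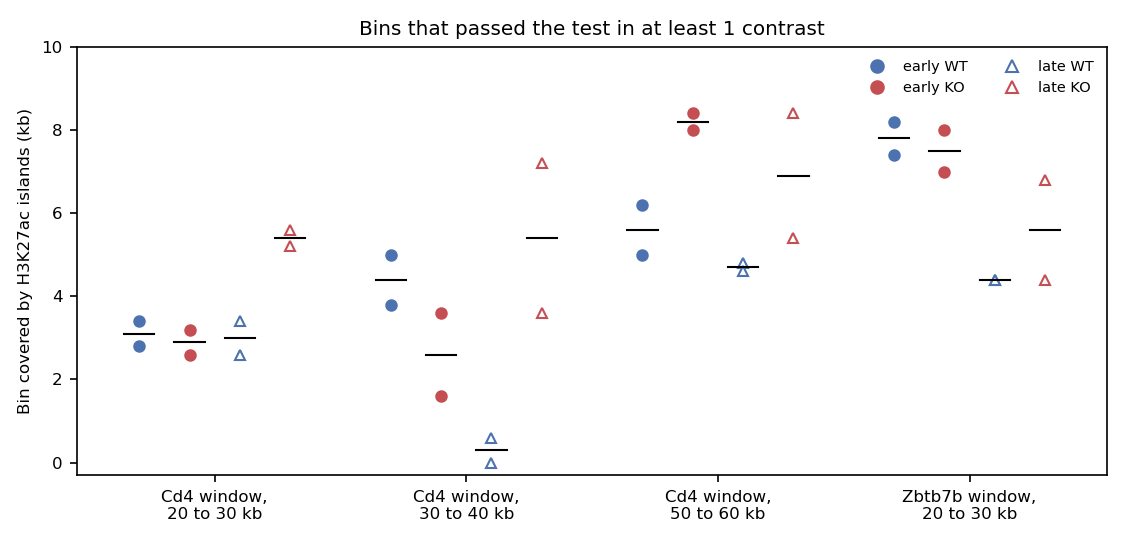
Kb covered by H3K27ac islands (vertical axis) in the 4 bins of 10 kb that passed the limma test in at least 1 contrast, named by window and distance from the window start. Points are libraries and bars are means of 2. In the Cd4 bin at 30 to 40 kb the late WT libraries lie at 0.6 and 0.0 kb.

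The bin chr6:124820001-124830000, at the left flank of the broad Cd4 region, moved most. Its covered length was 3.8 and 5.0 kb for early WT, 3.6 and 1.6 kb for early KO, 0.6 and 0.0 kb for late WT, and 7.2 and 3.6 kb for late KO. Separate islands in this bin were weak, at percentiles 10.7 and 15.2 in early WT, 1.4 in early KO replicate 1 and 9.2 in late KO replicate 2. The rest of its cover was the left end of the broad island. In late KO replicate 1 the whole 7.2 kb lay within 1 island of 24.2 kb. Late WT lay below every other group, and late KO did not overlap late WT. On the log2(kb + 0.5) scale the late KO against late WT difference was 2.88 (SE 0.51, limma adjusted p = 0.0237), and the fall from early to late WT was -2.67 (SE 0.51, limma adjusted p = 0.0166). With 1 late WT library at 0.0 kb, these log2 values depend on the pseudocount. The late against late difference missed the threshold without early WT replicate 1, late WT replicate 2, late KO replicate 1 or late KO replicate 2 (limma adjusted p from 0.0516 to 0.153), and at 0.465 with equal list lengths. The fall in WT missed it without early WT replicate 1, early WT replicate 2 or late WT replicate 2 (limma adjusted p from 0.058 to 0.0722), and at 0.111 with equal list lengths.

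The next bin to the left, chr6:124810001-124820000, had 3.4 and 2.8 kb for early WT, 2.6 and 3.2 kb for early KO, 3.4 and 2.6 kb for late WT, and 5.6 and 5.2 kb for late KO. Late KO stood above the other 6 libraries. The log2 difference was 0.72 from late WT (SE 0.15, limma adjusted p = 0.0406) and 0.84 from early KO (SE 0.15, limma adjusted p = 0.0167). The first of these missed the threshold in each of the 8 fits that left out 1 library (limma adjusted p from 0.0569 to 0.243), and the second in 4 of 8, those without an early KO or a late KO library (up to 0.147).

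Between the broad Cd4 regions, chr6:124840001-124850000 was covered over 5.0 and 6.2 kb for early WT, 8.0 and 8.4 kb for early KO, 4.8 and 4.6 kb for late WT, and 8.4 and 5.4 kb for late KO. KO lay above WT at each stage, though late KO replicate 2 was below early WT replicate 2. Averaged over the stages the log2 difference was 0.46 (SE 0.12, limma adjusted p = 0.0442), and it missed the threshold in 6 of 8 fits with 1 library left out (highest limma adjusted p 0.126).

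DNase in the Cd4 window formed 10 merged regions, of which 2 were in all 8 lists, where 27.3% of all 47976 DNase regions were. The member site whose rank differed most between KO and WT lay inside the right-hand broad H3K27ac region, at chr6:124851001-124851600, the core that an island covered in all 8 lists. Its percentile was 73.1 and 75.6 in early WT and 65.9 and 65.5 in late WT, against 98.9 and 98.9 in early KO and 98.0 and 98.3 in late KO. The 4 KO libraries did not overlap the 4 WT libraries. Counted from the top of its list the island ranked 10109 and 9711 in early WT and 9342 and 12760 in late WT, and it ranked 261 and 425 in early KO and 371 and 305 in late KO. In each KO list it was the highest scoring DNase island of all 3 windows, and in the WT lists it was number 5 or 6.

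**Figure D4:**
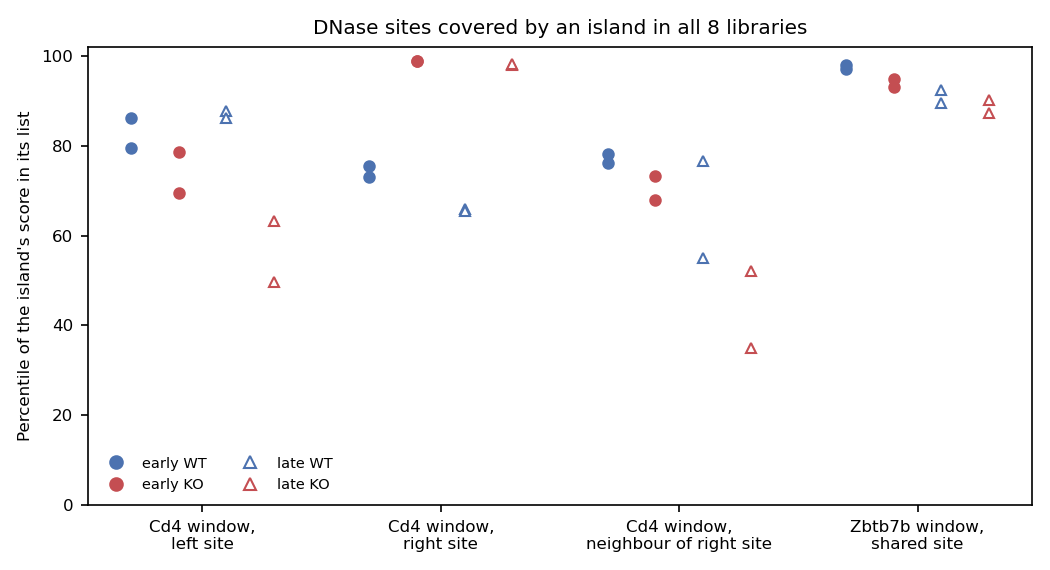
Percentile of the island score within its own DNase list (vertical axis) at 4 sites that an island covered in all 8 libraries, 3 in the Cd4 window and 1 in the Zbtb7b window. Each point is 1 library. At the right site of the Cd4 window the 4 KO libraries lie between 98.0 and 98.9 and the 4 WT libraries between 65.5 and 75.6.

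The lengths of the islands set KO apart less than the scores did. Islands over this site were 2.2 and 2.2 kb long in early WT, 0.6 and 2.0 kb for late WT, 1.6 and 2.8 kb for early KO, and 2.6 and 2.8 kb for late KO, so early KO overlapped early WT, while in late cells KO was longer than WT. Its neighbour at chr6:124853601-124854400, within the same merged region, did not share the pattern. That neighbour stood at percentiles 76.2 and 78.2 in early WT, 67.9 and 73.2 in early KO, 55.1 and 76.6 in late WT, and 52.1 and 35.0 in late KO. The left-hand site at chr6:124835201-124836800, inside the other broad H3K27ac region, ran the opposite way in percentile only. It stood at 86.2 and 79.6 in early WT and 87.8 and 86.1 in late WT. The KO percentiles were 69.4 and 78.7 in early cells and 63.2 and 49.7 in late cells. In rank from the top this left-hand site overlapped, at 3338 to 8091 in WT and 6920 to 8745 in KO. The same rank gives a lower percentile in a shorter list. How often percentiles separate KO from WT over all regions was not counted.

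This site was singled out after its values were seen, so the values are a description and no test of it is given. The reads behind the score were not analysed here, so whether they come from this locus alone was not tested. The log2 ratio of its score to that of the left-hand site within the same list was 1.97 ± 0.18 in KO and -0.79 ± 0.40 in WT (SD, n = 4 each), a difference of 2.76. The ratio was first taken from the highest island of each merged region, where the difference was 2.54, and was moved to the shared core when that region proved to hold 2 islands. Over the 7 definitions tried, with other base sites or with summed scores, the difference ran from 1.52 to 2.76, and KO and WT did not overlap in any. Leaving out each library in turn gave 2.66 to 2.95.

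Set against the genome, every KO list ranked the merged region chr6:124849601-124854800 above every WT list, as was so for 7.8% of the 13100 DNase regions found in all 8 lists, and the reverse held for 6.3%. The worst KO rank was 425 and the best WT rank 8633, a gap of 4.34 on the log2 scale. That gap was number 1 of the 13100, and the next was 3.19. Ranks and percentiles from lists of unlike length do not measure a change in signal. The KO lists held 24286 and 37956 islands in early cells and 18812 and 17397 in late cells. The WT lists held 37525 and 39736 in early cells and 27416 and 36963 in late cells. The part of list length in this gap was not tested.

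H3K27ac over the same place was less apart. The broad region chr6:124848001-124871600 ranked 719 and 531 from the top in early WT and 1624 and 1607 in late WT, and it ranked 298 and 239 in early KO and 359 and 374 in late KO. KO did not overlap WT, as in 10.3% of the 18384 H3K27ac regions found in all 8 lists, and the gap of 0.51 on the log2 scale was number 208. The log2 score ratio of this region to the left-hand broad region was 0.14 ± 0.13 in KO and -0.60 ± 0.25 in WT (SD, n = 4 each). With the Zbtb7b region as base the difference was 0.39 in place of 0.74, and KO and WT overlapped.

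DNase coverage gave no member bin that passed. Limma called 0 of 11 tested member bins in each of the 6 contrasts. Over all bins, limma called 0.54% higher and 0.689% lower in early KO against early WT, 0.343% and 1.81% in late KO against late WT, 0.652% and 0.894% in the average over stages, 0.593% and 2.12% in late against early WT, 0.197% and 2.25% in late against early KO, and 0.0% either way in the difference between stages. At an unadjusted p under 0.05 there were 0 of 11 member bins in early KO against early WT (12.4% of all bins), 1 in late KO against late WT (16.7%), 2 in the average (19.2%), 0 in the difference between stages (13.4%), 2 in late against early WT (13.6%) and 1 in late against early KO (14.5%). The bin with the smallest p in the KO comparisons was chr6:124810001-124820000, at 2.4 and 3.4 kb for early WT, 0.2 and 1.8 kb for early KO, 2.8 and 1.0 kb for late WT, and 0.0 kb for both late KO lists (average over stages -1.48 on the log2 scale, SE 0.41, limma adjusted p = 0.117). H3K27ac rose in late KO in this same bin, as given above. In simulated data the DNase fit recovered 26.5% of early KO bins given a log2 change of 2, with 10 false calls, and 0% at a change of 1. Only bins of middling coverage were altered there, and coverage was not capped at the bin length. The rates may not hold for member bins that are nearly empty or nearly filled.

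Several smaller DNase regions of the Cd4 window were in both lists of one group and neither of another. The regions chr6:124806001-124808600 and chr6:124811401-124815800 were in both late WT and neither late KO list, as were 16.3% of all DNase regions. The former held islands of 1.2 and 1.8 kb for early WT, 0.4 and 1.2 kb for early KO, and 1.4 and 0.4 kb for late WT, and was also in both early KO lists (background for early KO but not late KO 11.6%). The latter held 2.2 and 3.2 kb for early WT, 0.0 and 1.4 kb for early KO, and 2.2 and 0.8 kb for late WT. The region chr6:124843601-124845000 was in both early WT and neither late WT list (background 8.31%), with 0.6 and 1.0 kb for early WT and 1.2 kb for early KO replicate 2. The region chr6:124859201-124863600, which crosses the window edge, was in both early WT and neither early KO list (background 8.71%), at 3.0 and 4.4 kb, and in late WT replicate 2 at 2.2 kb. All 4 absences were from late or KO lists, and the 2 late KO lists were also the shortest of the assay. The part of list length in them was not tested.

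How often DNase islands of the whole genome overlap H3K27ac was not counted, so the next counts describe these windows only. Of the 66 DNase islands of the Cd4 window, 52 overlapped an H3K27ac island of some library. The other 14 made up 2 regions without the mark. These were chr6:124796601-124798000 and chr6:124808801-124810600, each with 1 island in 7 of 8 lists and none in late KO replicate 2. Their islands were short, from 0.4 to 1.6 kb. In the Zbtb7b window 26 of 27 DNase islands overlapped H3K27ac, and the exception crossed the window edge. It belonged to the region chr3:89158801-89160400, which was in both late WT and neither late KO list (background 16.3%) and in both early KO and neither late KO list (background 11.6%).

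Zbtb7b carried a single dominant domain. The H3K27ac region chr3:89180401-89201200 had its top island at percentiles 98.7 and 99.0 in early WT, 99.4 and 99.4 in early KO, 98.5 and 99.1 in late WT, and 99.5 and 99.5 in late KO. The stretch chr3:89185801-89200800, 15.0 kb long, was within 1 island in every list. In rank from the top that island was 351 and 298 in early WT, 392 and 289 in late WT, 184 and 174 in early KO, and 146 and 154 in late KO. Every KO list thus ranked it above every WT list, as in 10.3% of regions, and the gap of 0.65 on the log2 scale was number 120 of 18384. A smaller region at chr3:89214001-89218000 stood at percentiles from 51.7 to 70.2. Another, chr3:89219801-89227400, crossed the window edge and stood at percentiles from 83.1 to 87.1. Its islands touched the window only in late WT replicate 1 and late KO replicate 1.

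**Figure D5:**
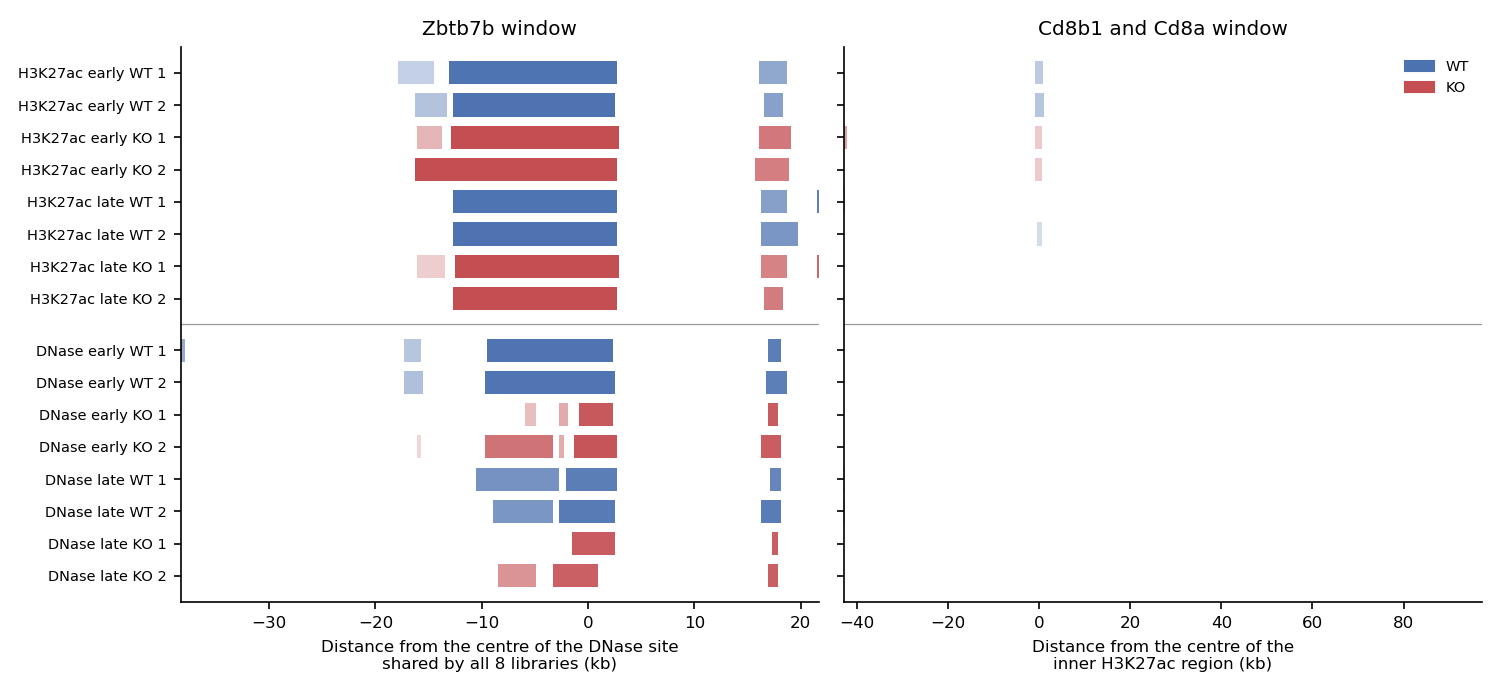
Islands in the Zbtb7b window (left) and the Cd8b1 with Cd8a window (right) for the 16 libraries, as distance in kb from a site named under each panel. Each row is 1 library, WT blue and KO red, and stronger colour stands for a higher score percentile. Zbtb7b has a broad H3K27ac island in every library, and the Cd8 window has 1 inner H3K27ac region in 5 of 8 libraries and no inner DNase island.

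The left flank of the Zbtb7b domain was shorter in late WT. The bin chr3:89180001-89190000 was covered over 8.2 and 7.4 kb for early WT, 7.0 and 8.0 kb for early KO, 4.4 and 4.4 kb for late WT, and 6.8 and 4.4 kb for late KO. All 4 early lists lay above all 4 late lists, the nearest being early KO replicate 1 at 7.0 kb and late KO replicate 1 at 6.8 kb. The fall from early to late WT was -0.72 on the log2 scale (SE 0.15, limma adjusted p = 0.0227). It missed the threshold when any 1 of the 4 WT libraries was left out (limma adjusted p from 0.0665 to 0.131). The bin chr3:89190001-89200000 was filled over its 10 kb in all 8 lists and could rise no further.

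DNase islands within the Zbtb7b domain, in the region chr3:89187801-89201000, were in more pieces in early KO than in early WT. In late cells they were not in more pieces in KO, and the part of list length in this was not tested. They covered 11.8 and 12.2 kb as 1 island each for early WT, 5.0 and 10.8 kb as 3 islands each for early KO, 12.6 and 10.8 kb as 2 islands each for late WT, and 4.0 kb as 1 island and 7.8 kb as 2 islands in late KO. KO and WT met at 10.8 kb. The core shared by all lists, chr3:89197401-89199200, stood at percentiles 98.0 and 97.2 in early WT, 93.1 and 94.9 in early KO, 89.5 and 92.4 in late WT, and 90.1 and 87.2 in late KO. It was thus high in every list. In percentile, KO was below WT in early cells and overlapped it in late cells. In rank from the top, KO was below WT in early cells (1685 and 1933 against 744 and 1115). In late cells KO ranked above WT (1856 and 2224 against 2893 and 2813). Islands over this core were 4.8 to 12.2 kb long in WT and 3.2 to 4.2 kb in KO, and the part of length in the score was not tested. How often the groups of a single stage separate was not counted. The other shared site, chr3:89215601-89216200, was at 81.7 to 91.2 throughout. The region chr3:89181001-89182800, at the left flank of the H3K27ac domain, was in both early WT and neither late WT list, as were 8.31% of all DNase regions. Its islands were weak, at 1.6 and 1.8 kb in early WT (percentiles 25.1 and 30.5) and 0.4 kb in early KO replicate 2 (percentile 4.1). No late list held it.

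The Cd8 window was nearly empty. Its inner H3K27ac region, chr6:71271801-71273800, held islands of 1.8 and 1.8 kb for early WT, 1.4 and 1.4 kb for early KO and 1.0 kb for late WT replicate 2, and none in the remaining 3 late lists. These were weak islands, at percentiles 21.1 and 25.2 in early WT, 12 and 11.9 in early KO, and 5.7 in late WT replicate 2. The region was in both early KO and neither late KO list, as were 5.88% of all 35909 H3K27ac regions. Its bin did not pass the limma test for time in WT (adjusted p = 0.15) or in KO (adjusted p = 0.0929). Late WT, at 0.0 and 1.0 kb, was the only group whose lists differed in covered kb in this bin. Leaving out either late WT library took most of the spread out of the fit, so such fits cannot decide whether the bin changed. Without replicate 1 the log2 difference was -1.92 from early to late KO and -1.67 from late WT to late KO. The latter rested on the only late WT list with an island there. Without replicate 2 the log2 difference was -1.88 from early to late KO. The highest scoring H3K27ac region that touched the window, chr6:71226801-71230600 at its edge, was at percentiles 42.3 and 28.7 in early WT, 39.9 and 34.5 in early KO, 39.4 and 42.4 in late WT, and 26.7 and 24.8 in late KO. The DNase region at the same edge, chr6:71228201-71230200, was in both late WT and neither late KO list, as were 16.3% of all DNase regions. Across the 3 windows, 0 regions were in both KO and neither WT list of a stage. Over all regions that pattern held for 9.36% in early and 4.71% in late cells for H3K27ac, and for 1.86% and 0.721% for DNase. Likewise 0 member regions were in both late and neither early list of a genotype, beside 8.31% in WT and 3.93% in KO for H3K27ac, and 2.01% and 0.369% for DNase.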

How the data were processed

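H3K27ac ChIP-seq and DNase-seq libraries of Th2 cells were used, 8 of each assay in 4 groups of 2. The submitters' processing notes name CASAVA 2.18, Bowtie2, SICER 1.1 and the build mm9. The authors deposited 1 island list per library, with chromosome, start, end and a score that is the authors' own caller value. A control library, read numbers and the meaning of the score are not given in the sources used here, so the depth is unknown and no count test could be run. SICER joins enriched windows across gaps, so a broad island can split or join with a small change in signal.

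Islands touching the windows were members, and were clipped to the window for covered kb. The genome was cut into 10-kb bins, and bins with islands in at least 2 of 8 libraries were kept. Island kb per bin went to log2(kb + 0.5), each library was centred by the median over bins that all 8 libraries cover, and values were fitted with limma 3.58.1 (eBayes with a trend) in R 4.3.3, all 4 groups sharing 1 spread. Window coverage was compared with exact permutation tests coded in Python 3.11.15 with pandas 2.3.3 and numpy 2.4.6. Figures were drawn with matplotlib 3.10.9. Merged regions join islands of the 8 libraries that overlap or touch. Named were bins that passed a contrast, and the region of each window and assay with the highest mean percentile. Regions in both libraries of one group and neither of the group compared were named too. The fit was tested on simulated data, where 200 of the H3K27ac bins of middling coverage were altered in early KO. It found 64% at a log2 change of 2, with 11 false calls, and 0% at 1. The members, lists and several tests were chosen with earlier results of these data known. Score ratios and rank gaps were added after the values were seen. Alternatives were no centring, quantile normalization, the upper 50% of each list, equal list lengths, a pseudocount of 2 kb, islands within 1 kb joined, no filter on bins, bins shifted by 5 kb, a replicate block and each library left out. With no mm9 annotation, the deletion of Bcl11b, other regulators of lineage choice and markers of other cells were not analysed here.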

Additional observations from a re-analysis of the deposited data

Results flagged for a closer look

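The KO difference in H3K27ac coverage of the Cd4 bin chr6:124820001-124830000 differed between the stages. Early KO had 3.6 and 1.6 kb against 3.8 and 5.0 kb in early WT, and late KO had 7.2 and 3.6 kb against 0.6 and 0.0 kb in late WT. Separate islands in this bin were weak, at percentiles from 1.4 to 15.2. The 7.2 kb of late KO replicate 1 lay within 1 broad island of 24.2 kb. The test of the difference itself gave 3.65 on the log2(kb + 0.5) scale (SE 0.72, limma adjusted p = 0.0267). It missed the threshold in 6 of the 8 fits with 1 library left out (highest limma adjusted p 0.109). Of the other settings, 4 of 7 ended the call, with limma adjusted p up to 0.771 for the upper 50% of each list.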

How the results depend on the processing

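Where no limma centring was used, the medians of all DNase bins shifted, from -0.17 to -0.53 in late KO against late WT and from -0.09 to -0.34 in early KO against early WT (log2). Changes of coverage in DNase are therefore relative to that shift.

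Over the 6 contrasts, the number of H3K27ac member bins past the threshold was the same with a pseudocount of 2 kb and with no filter, and changed in at least 1 contrast under each of the other settings. In late KO against late WT it went from 2 to 1 with quantile normalization and with equal list length, and to 0 with no centring and with the upper 50% of each list. For the average over stages and for the difference between stages it went from 1 to 0 with no centring, quantile normalization and the upper 50%, and the difference between stages also to 0 with equal list length. For time in WT it went from 2 to 1 with no centring and with bins shifted by 5 kb and to 0 with the upper 50%, and for time in KO from 1 to 0 with the upper 50% and with shifted bins. For DNase, 1 bin passed with no centring in late KO against late WT, in the average, in the difference between stages (each lower) and in time in WT (higher), and 1 (lower) in time in WT with shifted bins. Leaving out 1 library gave H3K27ac counts of 0 to 2 in late KO against late WT, in the difference between stages and in both tests of time, 0 to 1 in the average, and 0 to 0 in early KO against early WT. Without late WT replicate 1 these held 1 lower bin, chr6:71270001-71280000 of the Cd8 window, in late KO against late WT, the average, the difference between stages and time in KO, and without late WT replicate 2 in time in KO. The DNase counts stayed at 0 to 0. The cause of these changes was not tested. Fits with 1 library left out assume that the remaining library of its group varies like the other groups. For the Cd8 bin, leaving out a late WT library also took most of the spread out of the fit. Its calls in those fits cannot decide whether it changed.

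Replicate differences in bin coverage hardly correlated between groups, with correlations from -0.04 to 0.08. Such correlations cannot decide whether the replicate numbers pair the samples. With the replicate block, the H3K27ac count went from 2 to 1 in late KO against late WT and from 1 to 0 in the average, and the other 10 counts were as without it.

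For coverage of windows, in kb, the H3K27ac Cd4 difference of late and early changed sign without late WT replicate 1 (0.28) or 2 (1.35), in a range of -3.98 to 1.35 over the libraries left out, and the DNase Zbtb7b difference of late and early changed sign when divided by covered Mb (0.42). The other window differences kept their sign under every setting that gave a value other than 0.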
